A study of Homo sapiens with 15 samples.

Results

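The chemokine CXCL12 and its receptors CXCR4 and ACKR3 were described in growing and senescent IMR90 cells (human fibroblasts grown from fetal lung, used widely as a cell line), as 3 of the 57736 Ensembl genes in a table of RNA-seq counts. They are CXCL12 (ENSG00000107562, chromosome 10), CXCR4 (ENSG00000121966, chromosome 2) and ACKR3 (ENSG00000144476, chromosome 2). The genes were chosen by symbol, and the set was picked because CXCR4 was higher with a short hairpin against TXNRD1, the gene of the cytosolic thioredoxin reductase. The hairpin comparison of these genes is therefore given as values with no test. All 3 passed the filter on low counts, as did 15994 genes in all.

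CXCL12, also called stromal cell-derived factor 1, is a secreted chemokine that attracts leukocytes and progenitor cells. CXCR4 is its signalling receptor, which acts through inhibitory G proteins, while ACKR3, also called CXCR7, is an atypical receptor that recruits arrestins and takes CXCL12 up for degradation. In tissues, fibroblasts and other stromal cells are a known source of the ligand, and CXCR4 is best known from leukocytes and endothelium.

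The 15 libraries formed 5 groups of 3, all from IMR90 cells: senescent cells treated with Tri-1, a TXNRD1 inhibitor; senescent cells treated with DMSO, its vehicle; senescent cells with the hairpin, shTXNRD1; senescent control cells; and growing control cells. How the cells were made senescent, how much Tri-1 they received and for how long, what the hairpin's control carried and whether replicates were grown separately are not in the labels. The p-values cover the scatter among these libraries, which may be technical. With 1 hairpin condition and 1 compound, loss of TXNRD1 function and any further action of either agent cannot be told apart.

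Library totals ran from 18033076 to 28909046 counts. Levels are CPM, counts scaled to library size with TMM factors, and folds are ratios of mean CPM. Changes are edgeR log2 fold changes ± SE derived from its F statistic, called where the Benjamini-Hochberg adjusted p was under 0.05. TXNRD1 averaged 22.6 ± 2.29 CPM with shTXNRD1 and 514 ± 12.0 CPM in senescent control (SD, n = 3 each), 22.7-fold lower with the hairpin. It averaged 431 ± 11.6 CPM with Tri-1 and 408 ± 19.3 CPM with DMSO, and 1634 ± 130 CPM in growing control. All 10 fibroblast markers passed the filter, with summed levels of 7791 to 17298 CPM across the 15 libraries. Of 8 leukocyte markers, CD3E had 0 counts in every library, and PTPRC, the pan-leukocyte gene, had at most 6 counts in a library. Within groups, library values deviated with transcript GC content in both directions, from a Spearman coefficient of 0.640 in shTXNRD1 replicate 1 to -0.584 in DMSO replicate 1, -0.665 in shTXNRD1 replicate 3 and -0.692 in growing control replicate 1 (across genes, which are not independent replicates). Results for the 3 genes were also computed without the 3 libraries of most negative coefficient.

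The sequences before the transcription start are shown for 2 of the 3 genes, those matched in the table of RefSeq promoters (GRCh38.p14) used here, because the ligand and its signalling receptor stood at opposite ends of their ranges in growing cells. The CXCR4 window is chr2:136118150-136118399 and the CXCL12 window chr10:44385098-44385347, each 250 bases on the minus strand, ending just before the start (for CXCR4, the most upstream of the listed starts). ACKR3 is named only. Capitals mark matches, on either strand, to the letters of the NRF1 site, the TATA box, the GC box and the hypoxia response core.
CXCR4: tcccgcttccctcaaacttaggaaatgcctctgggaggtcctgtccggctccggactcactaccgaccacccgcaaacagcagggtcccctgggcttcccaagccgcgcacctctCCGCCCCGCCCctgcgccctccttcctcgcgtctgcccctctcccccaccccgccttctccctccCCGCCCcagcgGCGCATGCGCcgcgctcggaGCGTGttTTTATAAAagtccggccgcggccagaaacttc
CXCL12: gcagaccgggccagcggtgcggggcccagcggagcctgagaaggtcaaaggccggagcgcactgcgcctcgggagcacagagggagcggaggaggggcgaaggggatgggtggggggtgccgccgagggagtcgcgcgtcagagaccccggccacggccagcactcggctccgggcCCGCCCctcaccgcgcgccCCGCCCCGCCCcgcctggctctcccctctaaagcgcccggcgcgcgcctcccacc

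The CXCR4 window held the palindromic site of nuclear respiratory factor 1 (NRF1), the longest run of capitals between the GC boxes and the start, beginning 59 bases before the start, which 1.03% of 35116 RefSeq windows of the same length hold. It also held TATAAA on the plus strand, 30 bases before the start, and on the minus strand, 32 bases before it, overlapping each other (10.7% of windows hold 1 or more). A hypoxia response core, GCGTG, lay 39 bases before the start (32.2% of windows), and the alternative core ACGTG was not in this window (18.5% of windows). The GC box GGGCGG matched 3 times in the CXCR4 window and 3 times in the CXCL12 window (42.6% of windows). The CXCL12 window held neither the NRF1 letters, TATAAA, nor either hypoxia core. Neither window held the kappaB consensus (5.07% of windows) or the antioxidant response core TGACNNNGC (10.9%). The cAMP response core TGACG, left in lower case, matched once in the CXCL12 window and not in the printed CXCR4 window (21.2% of windows). RefSeq lists 2 other CXCR4 starts, not printed here. The window of 1 held that antioxidant core 2 times and TGACG 1 time. The window of the other held GCGTG 2 times and the GC box 1 time. These matches describe letters, and binding was not measured.

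Senescence was examined in both senescent control arms against growing control. The ligand CXCL12 and ACKR3 fell, and both were called lower with senescent control (56.9% of all tested genes were called, 27.4% higher and 29.5% lower). Both were called lower with senescent DMSO as well (58.4% of all genes, 27.5% higher and 30.8% lower). CXCR4 appeared in the senescent libraries. At 0 growing counts it passed the filter through them and had to be higher there, so its call is not counted. These comparisons share the growing libraries, and the senescent control libraries also entered the contrast from which the genes were picked, whereas the DMSO libraries did not. In bulk RNA, fewer cells that express a gene and less RNA per cell cannot be told apart.

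CXCL12, the ligand, had 36, 36 and 42 counts in the senescent control libraries (1.46, 1.78 and 2.10 CPM), against 173, 161 and 138 counts in the growing libraries (6.86, 6.61 and 6.48 CPM). Each senescent library lay below each growing library. It fell 3.74-fold (log2 change -1.91 ± 0.18, adjusted p = 6.36e-07). The DMSO libraries were lower still, at 9, 15 and 17 counts (0.466, 0.790 and 0.615 CPM), 10.7-fold below growing cells (-3.41 ± 0.21, adjusted p = 4.45e-09). At 41 counts over the DMSO group, the exact Poisson interval of its pooled level was 0.446 to 0.844 CPM, and of the growing level 6.07 to 7.29 CPM. Such intervals cover counting error only.

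CXCR4, the signalling receptor, had 39, 23 and 36 counts in the senescent control libraries (1.58, 1.14 and 1.80 CPM) and 30, 33 and 51 counts in the DMSO libraries (1.55, 1.74 and 1.85 CPM), against 0 counts in each growing library. The transcript was thus seen in each senescent library and in no growing one. Set against the level that 3 counts in the pooled growing libraries would give (0.0423 CPM), CXCR4 was at least 35.6-fold higher in senescent control. By the same bound it was at least 40.5-fold higher in DMSO-treated senescent cells. This bound limits the growing level and does not show that the transcript was absent. CXCR4 is a leukocyte gene as well, and the summed level of 8 leukocyte markers was 72.8 to 81.3 CPM in senescent control and 57.3 to 74.9 CPM in DMSO libraries, against 15.7 to 26.1 CPM in growing libraries. CD68, also a lysosomal gene of other cells, made up most of that sum, at 75.1 ± 4.08 CPM in senescent control and 20.9 ± 5.11 CPM in growing control (SD, n = 3 each). PTPRC averaged 0.197 CPM in senescent control and 0.0695 CPM in growing control. CSF1R, the macrophage growth factor receptor, rose by 2.66 ± 0.39 in senescent control. The summed endothelial markers were 162 to 173 CPM in senescent control and 88.7 to 94.2 CPM in DMSO libraries, against 109 to 134 CPM in growing libraries. The part of these markers in the CXCR4 values was not tested.

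ACKR3, the atypical receptor, had 186, 136 and 147 counts in senescent control (7.54, 6.72 and 7.34 CPM), against 209, 272 and 237 counts in growing control (8.28, 11.2 and 11.1 CPM). The groups did not overlap, but growing replicate 1 lay close to the senescent libraries. The fall of 1.42-fold passed the threshold narrowly (-0.50 ± 0.20, adjusted p = 0.0428). That call was lost without growing control replicate 2 (adjusted p = 0.132) or 3 (0.117) and without senescent control replicate 1 (0.0773), 2 (0.124) or 3 (0.0787). It was also lost with upper quartile scaling (0.0520), with a filter at a mean CPM of 5 (0.0909) and with a replicate term. It was kept with RLE, another scaling (0.0398), without a filter (0.0216), with the compared groups alone (0.0454) and after a GC correction (0.0173). DESeq2 (0.0377) and limma-voom (0.0205) kept it, as did leaving out growing control replicate 1 (0.0160). Without the 3 libraries of most negative GC coefficient, that replicate among them, the change was -0.63 ± 0.14 (adjusted p = 0.000900). With senescent DMSO the fall was larger and kept its call without each library: the DMSO libraries had 81, 56 and 113 counts (4.19, 2.95 and 4.09 CPM), 2.72-fold below growing cells (-1.44 ± 0.21, adjusted p = 3.28e-05).

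**Figure D1:**
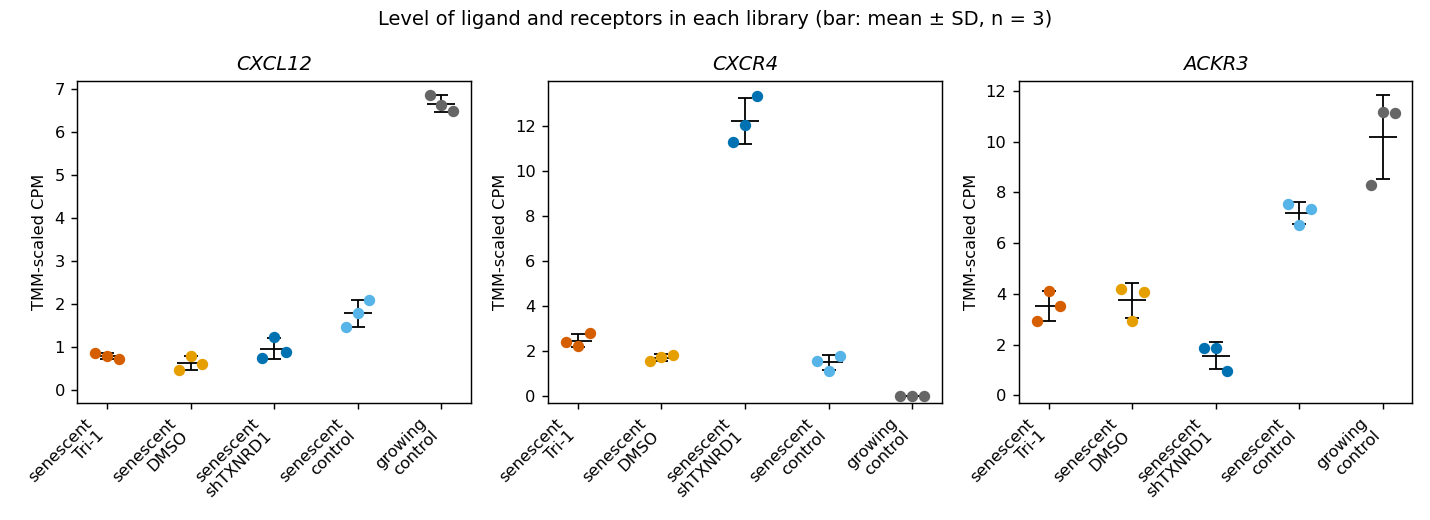
TMM-scaled CPM of CXCL12, CXCR4 and ACKR3 (vertical axes, linear) in each of 15 libraries by group (horizontal axis). Points are libraries, and bars show the mean ± SD of 3. CXCR4 sits between 11.3 and 13.3 CPM with shTXNRD1 and at 0 in growing cells, where CXCL12 and ACKR3 are highest.

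The senescent control arms were not alike for the ligand and the atypical receptor. Of the 3 genes, 2 were called between senescent DMSO and senescent control, both lower (16.2% of all genes were called, 8.36% higher and 7.87% lower). CXCL12 averaged 0.624 ± 0.162 CPM with DMSO and 1.78 ± 0.320 CPM in senescent control (-1.50 ± 0.22, adjusted p = 0.000411). ACKR3 averaged 3.74 ± 0.691 CPM with DMSO and 7.20 ± 0.428 CPM in senescent control (-0.94 ± 0.21, adjusted p = 0.00649; SD, n = 3 each). For both genes each DMSO library lay below each senescent control library. CXCR4 averaged 1.71 ± 0.148 CPM with DMSO and 1.51 ± 0.338 CPM in senescent control, with overlapping libraries (0.19 ± 0.18, adjusted p = 0.569). The senescent control libraries also entered the contrast that chose the set. Whether the arms differed in more than the vehicle is not given in the labels.

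Senescent cells given Tri-1 were compared with those given DMSO, which used no library from which the genes were picked. None of the 3 genes passed the threshold in edgeR (19.9% of all genes were called, 7.64% higher and 12.2% lower), and 1 of them, CXCR4, had an unadjusted p under 0.05. CXCR4 had 47, 48 and 66 counts in the Tri-1 libraries (2.39, 2.22 and 2.79 CPM), against 30, 33 and 51 in the DMSO libraries (1.55, 1.74 and 1.85 CPM). Each Tri-1 library lay above each DMSO library. The edgeR change was 0.52 ± 0.17 with a 95% interval of 0.13 to 0.91. Its adjusted p in edgeR was 0.0554. It was called with only the compared groups in the fit (adjusted p = 0.0426) and after a GC correction (0.0141), and missed the threshold in the other settings tried except the fit with a replicate term. The summed leukocyte markers were 92.2 to 93.8 CPM with Tri-1, against 57.3 to 74.9 CPM with DMSO, nearly all of it CD68, and CD3E and ITGAM were at 0 with Tri-1; their part in the CXCR4 values was not tested.

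CXCL12 had 17 counts in each Tri-1 library (0.865, 0.785 and 0.718 CPM), against 9, 15 and 17 counts in the DMSO libraries. The groups overlapped in CPM (0.33 ± 0.25, adjusted p = 0.464), and the interval of the change, -0.21 to 0.88, does not exclude a rise of the size seen for CXCR4. ACKR3 had 58, 89 and 83 counts in the Tri-1 libraries (2.95, 4.11 and 3.50 CPM), against 81, 56 and 113 counts in the DMSO libraries. Its libraries overlapped as well (-0.09 ± 0.22, adjusted p = 0.805, interval -0.57 to 0.39). In DESeq2 and in limma-voom none of the 3 genes passed the threshold either.

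The hairpin comparison chose the set, so its values for the 3 genes are a description (50.7% of all genes were called in this comparison, 25.8% higher and 24.8% lower). CXCR4 had 226, 275 and 269 counts with shTXNRD1 (11.3, 12.0 and 13.3 CPM), against 39, 23 and 36 counts in senescent control (1.58, 1.14 and 1.80 CPM). Its mean level was 8.11-fold that of senescent control (3.01 ± 0.17), and all hairpin libraries lay above all others of the study. ACKR3 had 37, 43 and 19 counts with shTXNRD1 (1.85, 1.88 and 0.941 CPM), against 186, 136 and 147 counts in senescent control. That is a log2 change of -2.20 ± 0.23, and shTXNRD1 replicate 3 was the lowest of the study. CXCL12 had 15, 28 and 18 counts with shTXNRD1 (0.749, 1.22 and 0.891 CPM), against 36, 36 and 42 counts in senescent control (-0.88 ± 0.21). All hairpin libraries lay below all senescent control libraries for both. The difference between the hairpin and inhibitor effects was not tested for these genes.

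Over the 5 groups, the mean level of CXCR4 ran from shTXNRD1 (12.2 ± 1.03 CPM) through Tri-1 (2.46 ± 0.292), DMSO (1.71 ± 0.148) and senescent control (1.51 ± 0.338) to 0 in growing control. Of these neighbours, only the DMSO and senescent control libraries overlapped. ACKR3 ran the other way, with shTXNRD1 lowest (1.56 ± 0.533 CPM), then Tri-1 (3.52 ± 0.580) and DMSO (3.74 ± 0.691), which overlapped, then senescent control (7.20 ± 0.428) and growing control (10.2 ± 1.65; SD, n = 3 each). For CXCL12 the order was DMSO (0.624 ± 0.162 CPM), Tri-1 (0.789 ± 0.0735), shTXNRD1 (0.955 ± 0.244), senescent control (1.78 ± 0.320) and growing control (6.65 ± 0.191). Its Tri-1 libraries overlapped with those of DMSO and of shTXNRD1, and the shTXNRD1 libraries did not overlap with senescent control. Across the 15 libraries, log2 CPM of CXCR4 had a Pearson r of -0.874 with ACKR3 and -0.824 with CXCL12, and ACKR3 and CXCL12 had 0.71. These values describe 5 clusters of libraries, include the contrast that chose the set, and carry no p.

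**Figure D2:**
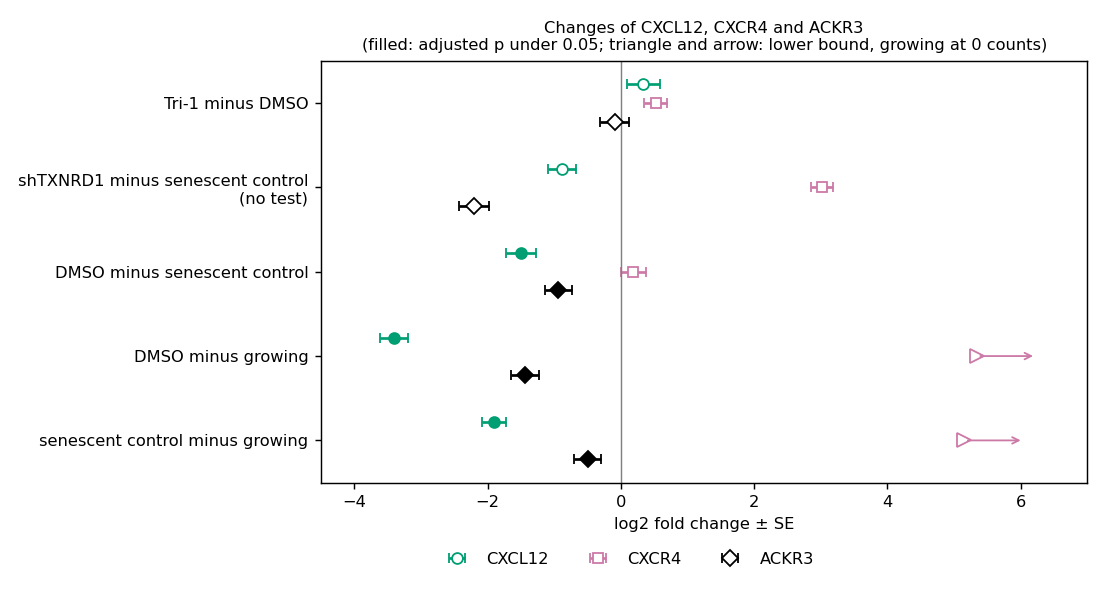
Log2 fold changes ± SE (horizontal axis) of CXCL12, CXCR4 and ACKR3 in 5 comparisons (rows). Filled symbols passed the threshold, open ones did not or had no test, and triangles with arrows are lower bounds for CXCR4, since growing libraries had 0 counts. With shTXNRD1 CXCR4 lies at 3.01 and ACKR3 at -2.20; with Tri-1 all lie between -0.09 and 0.52.

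The balance of the receptors was read within each library, where scaling cancels, as the CXCR4 count divided by the ACKR3 count, each per kb of exon. Lengths were those of GENCODE release 29 on GRCh38, 2224 bases for CXCR4 and 2258 for ACKR3, and may differ from the authors' annotation. The ratio was 0.823, 0.548 and 0.807 in the Tri-1 libraries and 0.376, 0.598 and 0.458 in the DMSO libraries, which overlapped. With shTXNRD1 it was 6.20, 6.49 and 14.4, against 0.213, 0.172 and 0.249 in senescent control and 0 in growing control. CXCR4 counts per kb thus exceeded those of ACKR3 in the hairpin libraries alone among the 15. In CPM per kb, CXCR4 stood at 5.49 ± 0.463 with shTXNRD1 and ACKR3 at 4.51 ± 0.733 in growing control (SD, n = 3 each), the highest group means of each.

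Other chemokine receptors were sparse. Of 17 others of the CXCR, CCR, CX3CR and XCR families, 3 passed the filter, and of 4 further atypical or chemokine-like receptors, 2 did. The 16 that did not had at most 101 counts over all 15 libraries, and 4 of them had none. CCR1, a receptor for several CC chemokines, CCR7, the lymph node homing receptor, and CCR10, a receptor of epithelial chemokines, all rose in senescent control over growing control (4.37 ± 0.44, 2.49 ± 0.53 and 1.36 ± 0.38), as did ACKR4, a scavenging receptor (3.50 ± 0.57), and CCRL2, which binds chemerin (2.65 ± 0.28). Over the growing group CCR1 rested on 4 counts, CCR7 on 7, ACKR4 on 5, CCR10 on 12 and CCRL2 on 13. Genes with so few growing counts, CXCR4 among them, passed the filter through the senescent libraries and had to be higher there, so no count of rising receptors is drawn from them.

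With Tri-1, CCR1 fell to 0.553 ± 0.120 CPM, against 1.12 ± 0.115 CPM with DMSO (SD, n = 3 each; edgeR adjusted p = 0.0351), and CCR7 fell as well (-1.37 ± 0.37, adjusted p = 0.0185). CCR10, ACKR4 and CCRL2 stood at -0.23 ± 0.32, -1.47 ± 0.60 and 0.58 ± 0.22, none called. With shTXNRD1, CCR7, CCR10 and ACKR4 fell relative to senescent control (-1.26 ± 0.47, -1.20 ± 0.39 and -1.17 ± 0.44), CCR1 was at 0.11 ± 0.28 and CCRL2 at -0.56 ± 0.23. Over the hairpin group CCR7, CCR10 and ACKR4 rested on 15, 12 and 24 counts. These genes passed the filter through other groups, which favoured a fall. Per kb of exon, CCR1 had 0.503 ± 0.0755 CPM with shTXNRD1, the highest of the other 3 signalling chemokine receptors there.

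**Figure D3:**
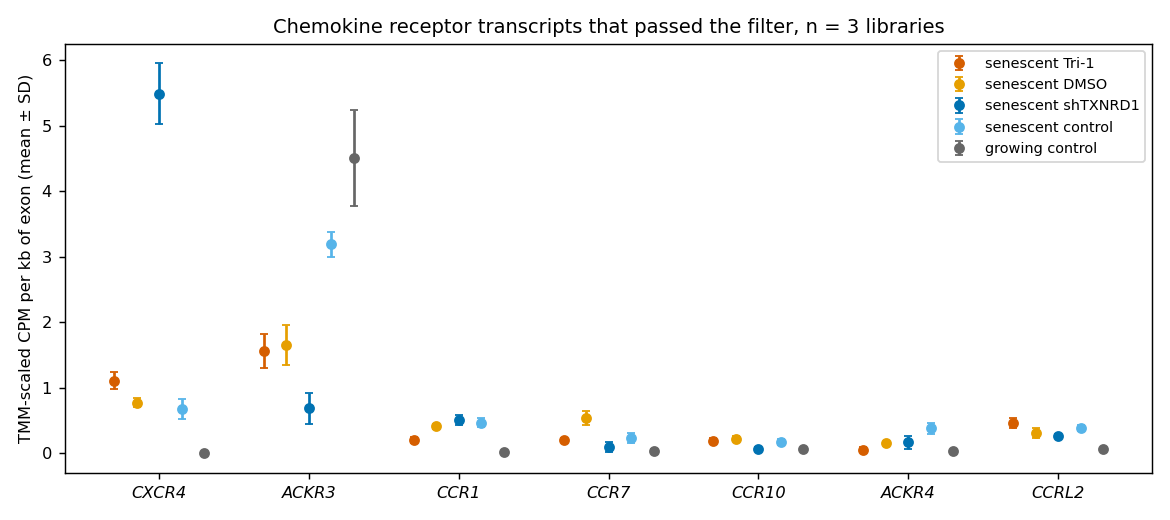
Group means ± SD (n = 3 libraries) of TMM-scaled CPM per kb of exon (vertical axis) for the 7 chemokine receptor genes that passed the filter (horizontal axis), coloured by group. CXCR4 with shTXNRD1 (5.49) and ACKR3 in growing cells (4.51) stand highest, and the other 5 receptors stay at or below 0.538 in each group.

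Genes of the pathway were counted in 9 lists by role, 155 genes of which 127 passed the filter. With Tri-1 13 rose and 20 fell relative to DMSO (26% of the 127, against 19.9% of all genes; list median -0.02, all genes 0.01). With shTXNRD1 23 rose and 56 fell relative to senescent control (62.2%, against 50.7%; median -0.30, all genes -0.01). In senescent control 59 rose and 26 fell relative to growing control (66.9%, against 56.9%; median 0.29, all genes 0.03). For the counts by list that follow, 7.64% of all genes rose and 12.2% fell with Tri-1, 25.8% rose and 24.8% fell with shTXNRD1, and 27.4% rose and 29.5% fell in senescent control. The senescent control counts include genes such as RGS1 and PIK3R5, at 0 growing counts, and CCR1, CCR7, ACKR4, CXCL11 and CA9, at few. Such genes passed the filter through senescent libraries, so the share that rose is in part set by the filter. With shTXNRD1 the falls of CXCL11, CCR7, CCR10, ACKR4, RGS1 and PIK3R5 carry the same limit.

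Of 6 tested other ligands and partners of the receptors, 1 fell with Tri-1, 1 fell with shTXNRD1, and in senescent control 2 rose and 1 fell. CXCL11, an interferon-induced chemokine that also binds ACKR3, was at 1.93 ± 0.250 CPM in senescent control and 0.208 ± 0.0683 CPM in growing control (3.16 ± 0.37, adjusted p = 4.52e-06). It fell to 0.368 ± 0.287 CPM with shTXNRD1 (-2.38 ± 0.34, adjusted p = 4.97e-05). CXCL11 was low in the growing and hairpin libraries and passed the filter through the other groups, which favoured both calls. Adrenomedullin, ADM, which ACKR3 also takes up, rose in senescent control (0.57 ± 0.14). HMGB1, which forms a complex with CXCL12 and has many processed copies that could share reads, fell in senescent control (-1.08 ± 0.07) and with Tri-1 (-0.43 ± 0.07). MIF, another CXCR4 ligand, was widely spread, at 12.1 ± 2.77 CPM in senescent control and 4.68 ± 3.32 CPM in growing control, and was not called, nor was its receptor CD74 (0.15 ± 0.25). CXCL14 and PENK did not pass the filter.

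Among 10 tested genes that cleave or hold CXCL12, 2 fell with Tri-1. With shTXNRD1 1 rose and 9 fell, and in senescent control 4 rose and 3 fell. DPP4, the peptidase that removes the N-terminus of CXCL12 and ends its activity, rose to 670 ± 26.8 CPM in senescent control, against 257 ± 30.1 CPM in growing control (1.38 ± 0.09, adjusted p = 6.68e-09). MMP14, a membrane metalloproteinase, also rose (1.82 ± 0.16). The heparan sulfate proteoglycans SDC2 (-1.45 ± 0.09) and SDC4 (-1.34 ± 0.06), which bind chemokines at the cell surface, fell in senescent control. With shTXNRD1 DPP4 (-0.24 ± 0.09), MMP14 (-0.46 ± 0.16), SDC2 (-1.24 ± 0.10), SDC4 (-0.71 ± 0.06) and GPC1 (-1.44 ± 0.49) fell, and CPM, a membrane carboxypeptidase gene, rose (0.84 ± 0.18). With Tri-1 SDC2 and the carboxypeptidase fell (-0.68 ± 0.10 and -0.80 ± 0.17).

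Of 18 tested G protein and RGS genes, which couple CXCR4 and shorten its signal, 6 fell and 0 rose with Tri-1 in edgeR. With shTXNRD1 2 rose and 11 fell, and in senescent control 8 rose and 4 fell. GNAI2, an inhibitory alpha subunit, fell with shTXNRD1 (-0.88 ± 0.11, adjusted p = 1.34e-05), while GNAI1 was at 0.09 ± 0.09. RGS5, a regulator that speeds the shut-off of G proteins, fell with Tri-1 to 15.7 ± 0.691 CPM, against 89.0 ± 1.99 CPM with DMSO (-2.51 ± 0.09, adjusted p = 5.48e-10). RGS4 rose with shTXNRD1 (0.69 ± 0.11) and fell with Tri-1 (-0.41 ± 0.10). RGS16 did not pass the filter. RGS1 had 0.357 ± 0.178 CPM in senescent control and 0 counts in growing control.

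Desensitisation and trafficking genes numbered 20, all tested. With Tri-1 1 rose and 1 fell, with shTXNRD1 4 rose and 5 fell, and in senescent control 7 rose and 4 fell. ARRB1, which encodes beta-arrestin 1 and binds both receptors, stood at 3.33 ± 0.362 CPM with shTXNRD1 and 18.9 ± 1.08 CPM in senescent control (-2.50 ± 0.14, adjusted p = 4.19e-09). ARRB2, its close relative, was at 0.19 ± 0.21 in the same comparison. ITCH, the ubiquitin ligase that sends CXCR4 to lysosomes, fell with shTXNRD1 (-0.87 ± 0.09, adjusted p = 2.38e-06) and NEDD4, a related ligase, rose (0.90 ± 0.09). The receptor kinases GRK2 and GRK3 were at -0.37 ± 0.26 and -0.15 ± 0.12, not called, and GRK5 fell (-0.48 ± 0.05). In senescent control GRK3 (0.89 ± 0.12), GRK5 (0.90 ± 0.05) and ARRB1 (0.80 ± 0.13) rose over growing control and ITCH fell (-0.24 ± 0.09). With Tri-1 GRK5 fell (-0.59 ± 0.05) and ARRB1 was at -0.04 ± 0.12.

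Downstream of the receptor, 31 kinases, GTPases and adaptors were tested. With Tri-1 4 rose and 3 fell, with shTXNRD1 5 rose and 14 fell, and in senescent control 8 rose and 11 fell. RAC2, a GTPase of leukocyte migration, rose to 86.9 ± 15.5 CPM in senescent control, against 5.20 ± 2.76 CPM in growing control (4.08 ± 0.40), and fell to 14.6 ± 7.34 CPM with shTXNRD1 (-2.58 ± 0.37). CFL1, the actin-severing cofilin, which has processed copies that could share reads, fell with shTXNRD1 to 229 ± 12.1 CPM, against 972 ± 17.6 CPM in senescent control (-2.08 ± 0.06, adjusted p = 1.62e-11), and rose with Tri-1 (0.43 ± 0.06). DOCK2, an exchange factor for Rac, fell with Tri-1 (-0.92 ± 0.28). PIK3R5, a regulatory subunit of phosphoinositide 3-kinase, had 0.436 ± 0.0679 CPM in senescent control and 0 counts in growing control.

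Hypoxia-inducible factors are known regulators of CXCR4 and CXCL12. Of 22 tested hypoxia-induced genes, 20 rose and 1 fell in senescent control (list median 1.15; of all genes 27.4% rose and 29.5% fell), and 20 rose and 1 fell with DMSO against growing control (median 1.09; all genes 27.5% and 30.8%). Both comparisons share the growing libraries. CA9, among the genes that rose in both, averaged 0.0533 CPM in growing control and passed the filter through other groups. VEGFA, the endothelial growth factor, and PFKFB4, a regulator of glycolysis, rose by 2.32 ± 0.08 and 3.33 ± 0.17 in senescent control. With shTXNRD1, where CXCR4 was highest, 7 of the list rose and 10 fell (median -0.18; all genes 25.8% and 24.8%): the glucose transporter SLC2A3 rose (1.62 ± 0.07), PFKFB4 fell (-0.92 ± 0.15) and VEGFA was at -0.02 ± 0.08. With Tri-1 5 rose and 3 fell (median 0.06; all genes 7.64% and 12.2%), ANKRD37 being highest (0.86 ± 0.20). The parts of these genes in the CXCR4 result were not tested.

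Of 15 tested transcription factors with known sites at CXCR4 or CXCL12, 3 rose and 2 fell with Tri-1, 4 rose and 3 fell with shTXNRD1, and 5 rose and 2 fell in senescent control. EPAS1, the hypoxia-inducible factor 2 alpha subunit, fell to 514 ± 21.8 CPM in senescent control, against 1747 ± 106 CPM in growing control (-1.77 ± 0.07), and HIF1A rose (0.32 ± 0.09). NRF1, whose site stands in capitals in the CXCR4 window, was at 12.4 ± 0.402 CPM with shTXNRD1 and 12.5 ± 0.690 CPM in senescent control (-0.01 ± 0.08, adjusted p = 0.949), and at 0.08 ± 0.08 in senescent control against growing control. NFATC3 and FOXC1 rose with shTXNRD1 (0.80 ± 0.08 and 0.80 ± 0.09), and MYC rose with Tri-1 (0.75 ± 0.11) and with shTXNRD1 (0.36 ± 0.11).

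**Figure D4:**
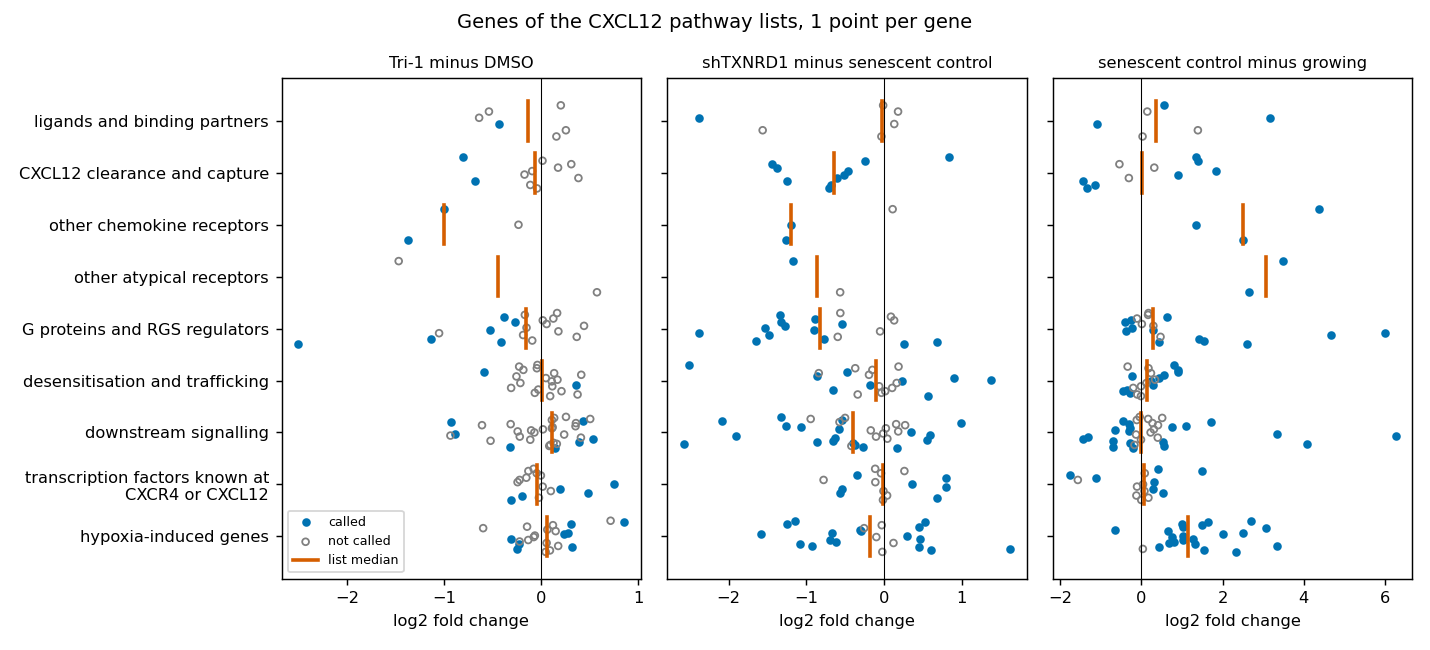
Log2 fold changes (horizontal axes, scaled separately) of the tested genes of 9 pathway lists (rows) in 3 comparisons (panels). Filled points passed an adjusted p of 0.05, open points did not, and orange bars are list medians. The hypoxia list lies to the right in senescent control (median 1.15) and spreads to both sides with shTXNRD1 (median -0.18).

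Markers of other cell types stood beside the CXCR4 values as follows. With shTXNRD1 the summed leukocyte markers were 19.1 to 39.0 CPM, against 72.8 to 81.3 CPM in senescent control. Most of the senescent control sum was CD68, also a lysosomal gene of other cells. PTPRC, at most 6 counts in any library, averaged 0.110 ± 0.101 CPM with shTXNRD1 and 0.197 ± 0.0838 CPM in senescent control (SD, n = 3 each). CSF1R, the macrophage growth factor receptor, fell by 3.31 ± 0.44 with shTXNRD1. Of 5 tested endothelial markers 4 fell and 1 rose with shTXNRD1 (of all genes 24.8% fell and 25.8% rose). CLDN5 had the largest change (-5.33 ± 0.73, adjusted p = 3.22e-05). KDR, a VEGF receptor and the 1 that rose, was at 8.24 ± 0.727 CPM with the hairpin and 0.470 ± 0.111 CPM in senescent control (4.10 ± 0.26, adjusted p = 1.58e-08). With Tri-1 the summed endothelial markers were 54.2 to 57.5 CPM, against 88.7 to 94.2 CPM with DMSO, and 8 of 10 fibroblast markers fell (12.2% of all genes), COL3A1 the most (-1.36 ± 0.09). Of 5 tested epithelial markers 1 rose and 1 fell with shTXNRD1, EPCAM rising by 1.74 ± 0.25. The share of these in the CXCR4 result was not tested.

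The genes most alike in pattern were taken as the 5 with the highest Pearson r of log2 CPM over the 15 libraries, among 11725 genes with a symbol and a mean log2 CPM not under 1. For CXCR4 these were TNFRSF10B, a death receptor for TRAIL (0.995), the homeobox gene HOXB5 (0.995), TMED4 (0.993), the junction protein CXADR (0.992) and ZNF432 (0.992). CXADR had 67.0 CPM with shTXNRD1, 16.0 with Tri-1, 16.0 with DMSO, 10.3 in senescent control and 1.24 in growing control on average. For CXCL12 they were LHFPL6 (0.983), the channel-family gene ANO4 (0.976), the innate immune adaptor MYD88 (0.972), the protocadherin PCDHGA7 (0.971), whose cluster shares exons, and CAV1, the caveolin 1 gene (0.970). For ACKR3 they were RTL8B (0.975), which has close paralogs, TMCO4 (0.969), the fatty acid desaturase FADS2 (0.966), ALDH3B1 (0.960) and the small heat shock protein gene CRYAB (0.958). With 5 groups of libraries, such values mainly follow the order of the group means.

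**Figure D5:**
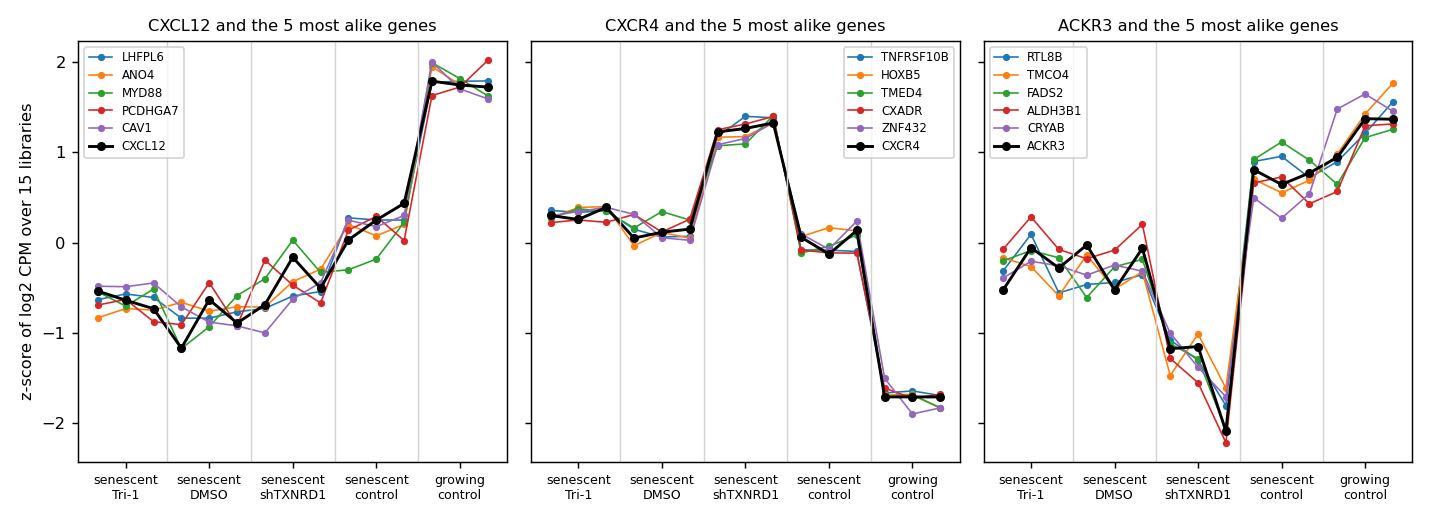
Z-scores of log2 CPM over 15 libraries (vertical axis) for each of CXCL12, CXCR4 and ACKR3 (black) and the 5 genes of highest Pearson r with it (coloured), with libraries by group on the horizontal axis. CXCR4 and its 5 genes are highest in the shTXNRD1 libraries and lowest in growing cells, at r of 0.992 to 0.995.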

How the data were processed

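Total RNA of 15 IMR90 libraries was sequenced with paired 75 bp reads, per the labels' protocols. The deposited table holds whole-number counts per Ensembl gene, unscaled. RSEM 1.2.3, DESeq2 and the builds hg19 and mm10 stand, without roles, in the submitters' processing notes. Aligner, annotation and strand setting: not given in the sources used here. Symbols were matched by identifier for 52301 genes. PECAM1 had no match.

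Counts were filtered (filterByExpr), scaled with TMM and tested by quasi-likelihood (glmQLFit with robust dispersion, glmQLFTest; edgeR 4.0.16, R 4.3.3), with a coefficient per group over all 15 libraries (10 residual degrees of freedom). P-values are two-sided, adjusted over 15994 genes in each comparison. The SE is the absolute log2 change over the square root of F. Intervals of 95% use the t distribution with the 10 residual degrees of freedom, so they need not match the p-values exactly. The script was tested on simulated data. Alternatives used DESeq2 1.42.0, limma-voom 3.58.1, other scalings and filters, a replicate term, the compared groups alone, and each library left out.

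The 3 genes, the lists and the rule for named genes (direct partners, the largest called change per list, and the 5 most alike genes) were chosen with earlier results of these data known, and not each gene chosen is printed. Libraries of the same replicate number were compared by the correlation of their deviations. In DMSO against growing control it was 0.423, 0.113 and 0.263, but replicate 2 was not closest to its own number. With shTXNRD1 against senescent control it was 0.0255, 0.0319 and 0.321, and only replicate 3 was closest to its own. The remaining comparisons held negative values. The numbers thus did not pair all samples in any comparison. In DMSO against growing control the replicate term changed no call of CXCL12 and ACKR3, and 82 pathway genes were called with it and 86 without.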

Additional observations from a re-analysis of the deposited data

Results flagged for a closer look

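CXCL12 was singled out because its libraries moved in opposite directions with the hairpin and with Tri-1, each against its own control. Those controls were not alike, at 1.78 ± 0.320 CPM in senescent control and 0.624 ± 0.162 CPM with DMSO. The Tri-1 mean (0.789 CPM) lay below the shTXNRD1 mean (0.955 CPM). DMSO replicate 2 (0.790 CPM) lay above Tri-1 replicates 2 and 3 (0.785 and 0.718 CPM). Each shTXNRD1 library lay below the senescent control mean (log2 change -0.88), and each Tri-1 library lay above the DMSO mean (0.33). The difference was not tested, the hairpin values come from the contrast that chose the set, and the inhibitor change missed the threshold (adjusted p = 0.464) on 51 counts with Tri-1 and 41 with DMSO.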

How the results depend on the processing

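Of 275 values under an alternative, 260 kept their side of the threshold (hairpin values, which have no test, moved by less than the spread between replicates, and counts by under 1.5 times), and no called change turned its sign. The uncalled ACKR3 change with Tri-1 did so without Tri-1 replicate 1 (0.02, against -0.09). For ACKR3 in senescent against growing control, the log2 change was -0.48 with upper quartile scaling, -0.42 with the filter at a mean CPM of 5 and -0.50 with the replicate term (adjusted p = 0.0721), none called, and -0.63 to -0.43 with a library left out. For CXCR4 with Tri-1 against DMSO it was 0.52 with the replicate term (replicate block, adjusted p = 0.0458), 0.51 with the compared groups alone and 0.56 after the GC correction, all called, and adjusted p ran from 0.0679 to 0.190 with a library left out. The causes were not tested. Pathway genes called numbered 33 with Tri-1, 63 with the compared groups alone and 57 after the GC correction. For DMSO against senescent control they numbered 22, 42 and 55, and for shTXNRD1 against senescent control 79, 62 and 93. The GC correction and the fit without 3 low-GC libraries were chosen after seeing the data. The filter at a mean CPM of 5 removed CXCR4 and CXCL12. With a library left out, the hairpin log2 change of CXCR4 was 2.85 to 3.15, of ACKR3 -2.37 to -1.95 and of CXCL12 -1.11 to -0.74. CXCL12 counts of 9 to 42 per senescent library limit its precision.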
